A study of Mus musculus with 8 samples.

Results

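The Hox genes encode homeodomain transcription factors that give cells along the body and limb axes their positional identity. In the deposited table, 35 of 17068 genes had a symbol made of Hox, a cluster letter a to d and a number, and all 35 were taken as members. RefSeq lists 39 such protein-coding genes in the mouse, and the other 4 (Hoxb8, Hoxb13, Hoxd1 and Hoxd12) were not analysed here. The members comprised 11 Hoxa genes, 8 Hoxb genes, 9 Hoxc genes and 7 Hoxd genes. Expression was measured by RNA-seq in freshly isolated osteoblastic cells (OBCs), which lay down bone matrix, sorted from long bones; the mice were C57BL/6J females aged about 10 weeks. The leukemic group (L-OBCs, 4 libraries) came from mice bearing B-ALL, an acute leukemia of B-cell precursors, driven here by BCR-ABL, and the control group (C-OBCs, 4 libraries) from healthy mice. The markers used for the sort, the bones taken, any pooling of animals and the way the leukemia was established are not given in the sources used here. No label says that each library is a separate animal. The p-values therefore reflect the spread between these samples alone, and that spread may be technical.

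Mammalian Hox genes lie in 4 clusters on different chromosomes, and genes at the same place in different clusters form a paralogue group with closely related homeodomains. Low group numbers lie at one end of a cluster and act towards the head, while high group numbers act towards the tail and along the limb. In the limb, groups 9 and 10 are needed for the upper segment (femur and humerus), group 11 for the middle segment (tibia, fibula, radius and ulna) and group 13 for the hand and foot. The Hoxa and Hoxd clusters do most of this limb patterning, and adult skeletal cells keep part of the pattern. Pbx and Meis proteins bind DNA together with Hox proteins, and Polycomb and trithorax proteins keep Hox genes silent or active.

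In GRCm38.p6, the build named in the submitters' processing notes, the Hoxa members lie on chromosome 6. The Hoxb members span chromosome 11 from 96271330 to 96368254, the Hoxc members chromosome 15 from 102921131 to 103036856, and the Hoxd members chromosome 2 from 74668225 to 74748271. The homeoboxes of group 10 are shown because this group carried most of the Hox signal while its 3 genes stood at very different levels. Each is 180 bases long, lies in exon 2 of 2 and was read from GENCODE M21 transcripts. They occupy chr6:52232554-52232733 on the minus strand (Hoxa10), chr15:102970848-102971027 on the plus strand (Hoxc10) and chr2:74694141-74694320 on the plus strand (Hoxd10). Capitals mark bases that differ from Hoxa10.
Hoxa10: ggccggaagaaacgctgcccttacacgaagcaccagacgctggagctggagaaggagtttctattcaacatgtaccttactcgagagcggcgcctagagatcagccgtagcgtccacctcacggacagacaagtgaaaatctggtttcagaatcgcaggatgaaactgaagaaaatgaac
Hoxc10: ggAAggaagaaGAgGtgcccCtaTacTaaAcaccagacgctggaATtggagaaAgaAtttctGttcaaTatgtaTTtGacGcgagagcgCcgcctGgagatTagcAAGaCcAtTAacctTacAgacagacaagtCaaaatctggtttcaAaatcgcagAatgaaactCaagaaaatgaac
Hoxd10: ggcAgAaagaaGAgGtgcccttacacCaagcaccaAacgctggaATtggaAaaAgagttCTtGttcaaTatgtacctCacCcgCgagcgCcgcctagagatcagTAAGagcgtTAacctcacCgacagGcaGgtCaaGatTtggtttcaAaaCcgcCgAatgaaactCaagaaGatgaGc
Hoxc10 differed from Hoxa10 at 35 bases and Hoxd10 at 38 bases. Over all members, homeobox DNA had a median identity of 82.5% within a paralogue group (34 pairs, 73.3% to 93.9%) and of 61.7% between genes of the same cluster (140 pairs, 48.3% to 88.9%). The encoded homeodomains had a median identity of 94.2% within a paralogue group.

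Despite this likeness, few stretches were long enough to blur the assignment of reads between most of the abundant genes. Stretches were searched in the sense direction only, so overlap with antisense transcripts is not counted in these shares. No 31-base stretch of Hoxa10 or Hoxa11 transcripts was found in this way in another gene. For Hoxa9 1.02% were, for Hoxd8 0.0730% and for Hoxc9 1.92%. Hoxc10 and Hoxc5 share an exon in the annotation, and 7.34% of the 31-base stretches of Hoxc10 were also found in Hoxc5, so these values are less certain. Hoxd3 and Hoxd4 share most with neighbouring transcripts (61.1% and 49.1%) and cannot be separated well. The libraries do not mark strand, so reads from antisense transcripts are counted with the gene. An antisense gene covers 35% of the exonic bases of Hoxa11 (Hoxa11os) and 20.4% of those of Hoxa7 (Hoxaas3). No antisense exon overlapped Hoxa9, Hoxa10, Hoxc9, Hoxc10 or Hoxd8.

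Promoters from RefSeq (GRCm38.p6) were available for 19 of the 35 members, with 21 start sites. Those of Hoxa10 and Hoxd10 are shown because these paralogues differed most in level within their group. Each is given as the 250 bases before a start, in the direction of transcription. That of Hoxa10 lies at chr6:52234940-52235189 on the minus strand, before the downstream one of its 2 starts, and that of Hoxd10 at chr2:74691641-74691890 on the plus strand. Capitals mark matches, on either strand, to the TATA box TATAAA, the CCAAT box, the Pbx-Hox site TGATNNAT or the Cdx site TTTATG.
Hoxa10: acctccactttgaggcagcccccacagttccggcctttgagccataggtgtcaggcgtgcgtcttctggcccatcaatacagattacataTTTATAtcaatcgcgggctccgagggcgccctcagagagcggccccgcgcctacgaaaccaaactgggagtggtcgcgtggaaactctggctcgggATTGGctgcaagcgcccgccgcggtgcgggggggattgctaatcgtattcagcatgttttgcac
Hoxd10: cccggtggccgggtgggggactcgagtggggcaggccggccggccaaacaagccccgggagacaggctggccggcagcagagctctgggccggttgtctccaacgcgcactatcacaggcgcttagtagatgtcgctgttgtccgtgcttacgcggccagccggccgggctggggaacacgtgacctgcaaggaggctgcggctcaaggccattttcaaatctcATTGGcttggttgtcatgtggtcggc
Hoxa10 held a TATA box match and a CCAAT match, and Hoxd10 a CCAAT match. The CCAAT box was matched in 11 of 21 Hox promoters against 33.8% of all 32536 promoters, and the TATA box in 3 of 21 against 12.3%. The Pbx-Hox site was matched in 3 of 21 (Hoxd11, Hoxa2 and Hoxb1) against 7.66%, and the Cdx site in 4 of 21 (Hoxd11, Hoxd3, Hoxd4 and Hoxa7) against 10.8%. No searched motif was matched in the windows of Hoxa9, Hoxa11 or Hoxd9. Median GC content was 59.2% in Hox promoters and 52.4% in all promoters. These matches describe letters in the window and are not binding sites.

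Levels are given as FPKM (fragments per kilobase of transcript, scaled to the library's mapped fragments), a scale per length on which genes can be compared. Summed FPKM over the table ran from 456191 to 632055 per library and 10911 to 11162 genes per library reached 1 FPKM, while read depth is unknown. Osteoblast markers were abundant in both groups, with a summed level of 44310 to 77890 FPKM over 9 genes in leukemic and 44800 to 90250 FPKM in control libraries. The defining leukocyte gene Ptprc, the B-lineage gene Pax5 and the endothelial genes Pecam1 and Cdh5 stayed below 1 FPKM in every library. Other genes of these lists were detected. The 6 pan-leukocyte genes, led by Coro1a, summed to 3.41 to 9.60 FPKM in leukemic and 3.01 to 6.80 FPKM in control libraries. Of these, 4 had the higher mean in leukemic OBCs. The 5 endothelial genes, led by Emcn, summed to 0.08 to 1.38 FPKM and 0.38 to 1.81 FPKM, and 1 had the higher leukemic mean. The 9 B-lineage genes, led by Ebf1, summed to 20.6 to 53.3 FPKM in leukemic and 19.98 to 41.1 FPKM in control libraries, and 8 of the 9 had the higher mean in leukemic OBCs. The 8 myeloid genes, led by Lyz2, summed to 80.7 to 183.4 FPKM in leukemic and 85.9 to 96.9 FPKM in control libraries. The 4 haematopoietic progenitor genes in the table, led by Cd34, summed to 17.7 to 26.1 FPKM and 12 to 31.8 FPKM. The part of these transcripts in the Hox values was not tested. Chondrocyte markers were also abundant, led by Col2a1 (summed level of 3819 to 15310 FPKM in leukemic and 8158 to 10920 FPKM in control libraries). Fibroblast and tendon markers stood at 174.6 to 530.8 FPKM in leukemic and 101.9 to 293.7 FPKM in control libraries. Skeletal muscle markers, led by Mylpf, stood at 5.36 to 16.3 FPKM and 7.19 to 9.75 FPKM. The leukemic mean was the higher in 1 of 9 osteoblast, 7 of 7 fibroblast and tendon and 5 of 5 muscle genes. It was the higher in 2 of 5 chondrocyte, 3 of 8 myeloid and 2 of 4 progenitor genes. The part of these differences in the Hox values was not tested. Shorter transcripts stood relatively higher in leukemic libraries 1 and 2. Across genes, the Spearman correlation between a gene's deviation from its mean and its length was -0.233 and -0.191 there, and -0.0565 to 0.218 in the other 6 libraries.

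The OBCs carried a Hox profile led by group 10 of the Hoxa and Hoxc clusters. Hoxa10 and Hoxc10 together held 54.4% ± 5.79 (SD, n = 8 libraries) of the summed Hox FPKM. Groups 9 to 11 held 76.8% ± 4.05, groups 5 to 8 held 18.7% ± 2.60, groups 1 to 4 held 4.34% ± 1.86 and groups 12 and 13 held 0.177% ± 0.252. The summed level of all 35 members was 65.0, 91.3, 78.4 and 62.7 FPKM in leukemic libraries 1 to 4 and 86.3, 97.0, 77.0 and 82.5 FPKM in control libraries 1 to 4. On the deposited FPKM scale the ranges of the groups overlapped, with the 2 lowest sums in leukemic libraries 1 and 4. Summed FPKM over the table differed between libraries, from 456191 to 632055. Divided by these totals, every leukemic Hox sum lay below every control sum, so the overlap depends on the scaling. Such rescaling also moved the median log2 fold change of all genes from -0.025 to -0.138.

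**Figure D1:**
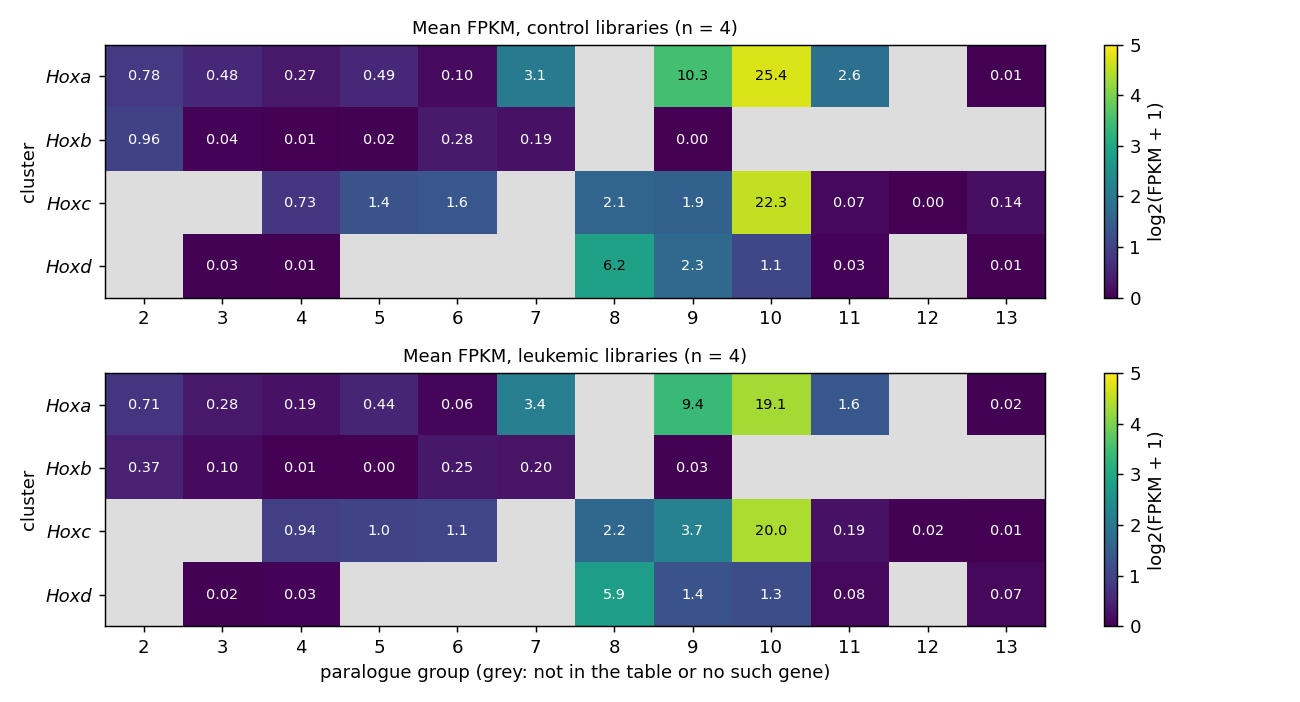
Mean FPKM of each Hox gene by cluster (rows) and paralogue group (columns, groups 2 to 13) in control (upper panel) and leukemic (lower panel) libraries, 4 per panel, with colour on the log2(FPKM + 1) scale. In both panels the brightest cells are Hoxa10 and Hoxc10, and every Hoxb cell shown is below 1 FPKM.

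A level of 1 FPKM in 4 or more libraries was required for testing, which 12 of the 35 members met and 23 did not. The tested genes were 4 of 11 Hoxa genes, 0 of 8 Hoxb genes, 5 of 9 Hoxc genes and 3 of 7 Hoxd genes. Hoxa7, Hoxa9, Hoxa10, Hoxc8, Hoxc10, Hoxd8 and Hoxd9 reached 1 FPKM in all 8 libraries. Hoxc6 and Hoxc9 did so in 7, Hoxa11 and Hoxd10 in 6 and Hoxc5 in 5. Hoxa11 passed with all 4 control libraries and 2 leukemic libraries, so its passing is not independent of the comparison.

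The genes with a mean of at least 5 FPKM were Hoxa10, Hoxc10, Hoxa9 and Hoxd8. Hoxa10 (gene ID 15395, chromosome 6, 52231197 to 52240854), a group 10 gene of the upper limb segment, stood at 14.1, 22.4, 21.2 and 18.8 FPKM in leukemic libraries 1 to 4. In control libraries 1 to 4 it stood at 24.9, 31.3, 23.7 and 21.7 FPKM. Control libraries were mostly higher, but leukemic library 2 lay above control library 4, so the groups overlapped on the FPKM scale. Summed FPKM over the table was 632055 in leukemic library 2 and 477127 in control library 4. Divided by the library totals, every leukemic Hoxa10 value lay below every control value, so this overlap depends on the scaling. Hoxc10 (209448, chromosome 15, 102966796 to 102971898), its paralogue and in mouse development a gene of the hindlimb, stood at 24.1, 16.9, 23.3 and 15.7 FPKM in leukemic libraries. It stood at 20.3, 27.5, 14.9 and 26.7 FPKM in control libraries, and the groups were interleaved.

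Hoxa9 (15405, chromosome 6, 52223097 to 52227370), which acts in the limb and also in blood progenitors, stood at 6.88, 11.6, 10.2 and 8.79 FPKM in leukemic libraries. In control libraries it stood at 11.7, 9.98, 9.56 and 10.2 FPKM, a narrow range that leukemic libraries 1 and 4 lay below and libraries 2 and 3 within. Hoxd8 (15437, chromosome 2, 74704615 to 74707933) was the most abundant Hoxd gene, at 3.14, 10.1, 5.36 and 4.91 FPKM in leukemic and 3.78, 8.41, 6.31 and 6.41 FPKM in control libraries. Its highest value was in leukemic library 2 and its lowest in leukemic library 1, so the spread within the leukemic group exceeded the difference between groups.

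**Figure D2:**
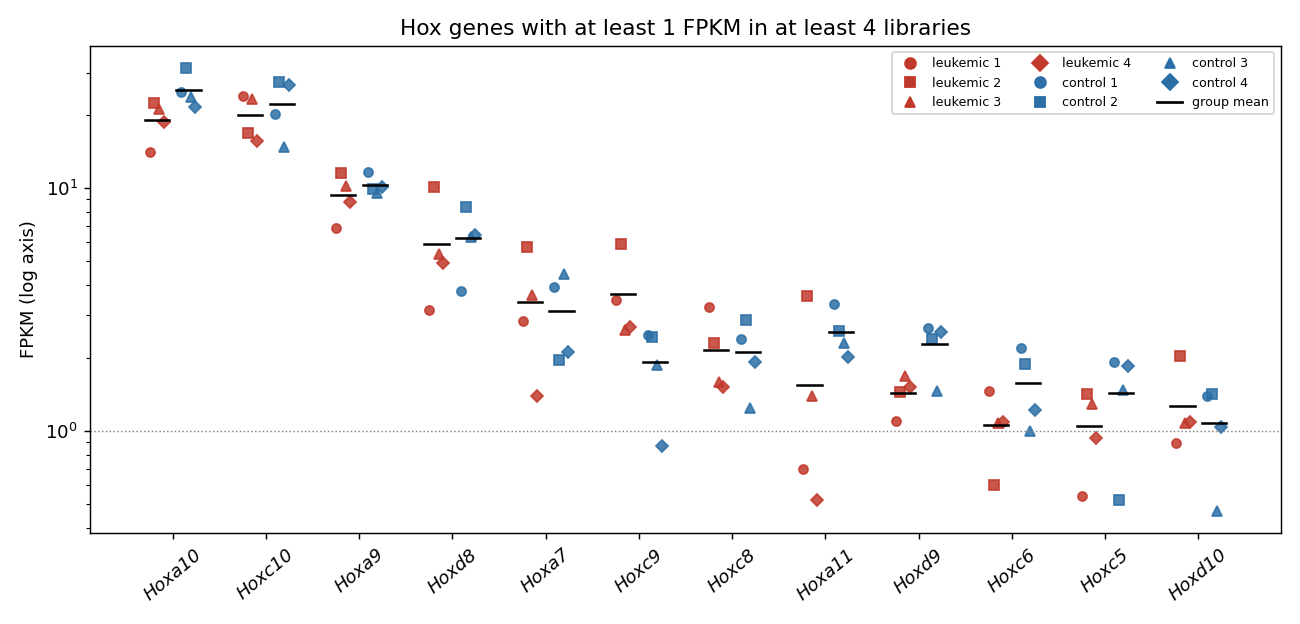
FPKM (log axis) of the 12 Hox genes tested, ordered by mean over 8 libraries; each point is 1 library (marker shape gives its number), black lines are group means and the dotted line is 1 FPKM. Hoxa10 and Hoxc10 lie near 20 FPKM in both groups, and Hoxc9 is the only gene of the 12 with all leukemic points above all control points.

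The FPKM of genes of the same paralogue group differed steadily over the libraries in 5 of 7 pairs compared between clusters. Levels on the log2(FPKM + 1) scale were compared within libraries for 7 pairs, over both groups together, by an exact two-sided paired permutation test with adjustment over the 7 pairs. These pairs were chosen after the values were seen, so the p-values are descriptive only. They reflect how steady a difference was over 8 libraries that are not known to be separate animals. A constant error in the length or read assignment of a gene would not show in them. Hoxa10 and Hoxc10 differed by 0.07 ± 0.43 (SD, n = 8; exact p = 0.641, adjusted p = 0.641), with Hoxa10 higher in 5 of 8 libraries. Both were higher than Hoxd10 in 8 of 8 libraries, by 3.42 ± 0.37 for Hoxa10 and 3.34 ± 0.41 for Hoxc10 (exact p = 0.00781, the smallest that 8 libraries allow, adjusted p = 0.0137 for each). In group 9, Hoxa9 was higher than Hoxc9 by 1.59 ± 0.57 and than Hoxd9 by 1.94 ± 0.24, in 8 of 8 libraries each (exact p = 0.00781, adjusted p = 0.0137). Hoxc9 and Hoxd9 differed by 0.35 ± 0.74 (exact p = 0.227, adjusted p = 0.264). In group 8, Hoxd8 was higher than Hoxc8 in 7 of 8 libraries, with Hoxc8 minus Hoxd8 at -1.13 ± 0.61 (exact p = 0.0156, adjusted p = 0.0219).

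The order of levels along the cluster was not the same in Hoxa, Hoxc and Hoxd. In the Hoxa cluster the mean over 8 libraries was 3.26 FPKM for Hoxa7, 9.85 for Hoxa9, 22.3 for Hoxa10, 2.06 for Hoxa11 and 0.0150 for Hoxa13. The Hoxc cluster ran from 0.835 FPKM for Hoxc4 through 1.25 (Hoxc5), 1.32 (Hoxc6), 2.14 (Hoxc8) and 2.80 (Hoxc9) to 21.2 for Hoxc10, and fell to 0.133 for Hoxc11. The Hoxd cluster was highest at Hoxd8 (6.05 FPKM) and lower at Hoxd9 (1.86), Hoxd10 (1.18) and Hoxd11 (0.0550). Group 11 was thus low in the Hoxc and Hoxd clusters and detected in the Hoxa cluster, and group 13 was low in all 3.

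The Hoxa cluster held 39.2% to 51.6% of the summed Hox FPKM in leukemic libraries and 46.3% to 58.2% in control libraries. The Hoxc cluster held 31.4% to 51.1% and 28.5% to 40.8%, and the Hoxd cluster 7.98% to 15.3% and 9.24% to 12.7%. The Hoxb cluster held 0.497% to 1.68% and 0.679% to 2.54%. All 4 ranges overlapped between the groups. Leukemic library 1 had the lowest Hoxa share and the highest Hoxc share of the 8 libraries.

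**Figure D3:**
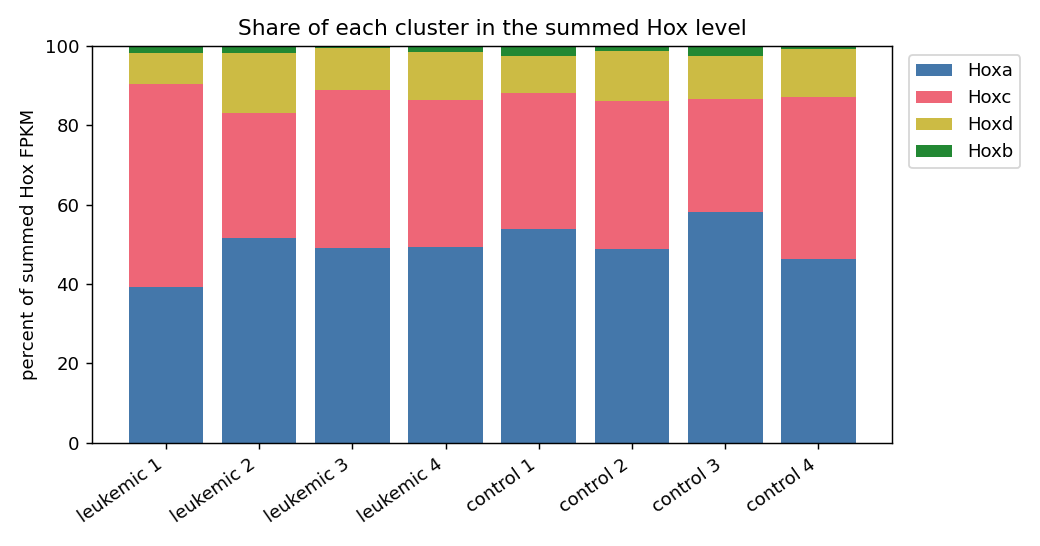
Percent of the summed Hox FPKM held by each cluster (stacked bars from 0 to 100%) in each of the 8 libraries. Hoxa and Hoxc make up most of every bar, Hoxd is 7.98% to 15.3%, and Hoxb is at most 2.54%.

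The 23 members that were not tested were low in nearly every library and together held 6.05% ± 2.35 (SD, n = 8) of the summed Hox FPKM. Of these, 18 stayed below 1 FPKM in every library. The other 5 reached 1 FPKM in 1 to 3 libraries, among them Hoxa2 (0 to 1.52 FPKM over the 8 libraries), Hoxa5 (0.120 to 1.31), Hoxb2 (0.140 to 2.06) and Hoxc4 (0.30 to 1.35). Hoxa3 and Hoxa4, which act in the neck and anterior trunk, reached at most 0.820 and 0.360 FPKM, and Hoxa6 at most 0.250 FPKM.

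Apart from Hoxb2, the Hoxb genes stayed below 1 FPKM in every library. Hoxb2 stood at 0.32, 0.67, 0.23 and 0.26 FPKM in leukemic and 2.06, 0.86, 0.77 and 0.14 FPKM in control libraries, with its highest value in control library 1 and its lowest in control library 4. Hoxb6 and Hoxb7 reached at most 0.730 and 0.430 FPKM, Hoxb3 0.320, Hoxb1 0.130, Hoxb9 0.10 and Hoxb5 0.0600. Hoxb4, which is used in blood stem cells, reached at most 0.0100 FPKM. At the other end of the clusters, Hoxd13, needed for digits, reached at most 0.30 FPKM, Hoxa13 0.0900, Hoxc12 0.0900 and Hoxc13 0.560. Hoxc11 reached at most 0.350 FPKM and Hoxd11, a partner of Hoxa11 in the middle limb segment, 0.210, while Hoxd3 and Hoxd4 reached 0.0900 and 0.0600. Among the 35 members, 10 were listed at 0 in 4 or more libraries.

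Leukemic and control OBCs were compared with limma on log2(FPKM + 1), fitted over all 11214 genes that met the same requirement, with Benjamini-Hochberg adjustment. Of the 12 Hox genes tested, 0 passed an adjusted p of 0.05, and over all genes 0% passed, with a lowest adjusted p of 0.144. The adjusted p of the Hox genes ran from 0.695 to 0.989. At an unadjusted p under 0.05, 1 Hox gene was higher in leukemic OBCs (Hoxc9) against 2.49% of all genes, and 0 were lower against 4.13% of all genes. The median log2 fold change was -0.14 over the 12 genes, 4 positive and 8 negative, and -0.025 over all genes, of which 46.4% were positive. Since each library is a bulk sample, fewer cells of a type and less RNA per cell cannot be told apart.

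Hoxc9 (15427, chromosome 15, 102977032 to 102984444), a gene of the trunk and limb, stood at 3.46, 5.92, 2.61 and 2.68 FPKM in leukemic and 2.50, 2.45, 1.88 and 0.870 FPKM in control libraries. Every leukemic value exceeded every control value, but the lowest leukemic library (2.61) was close to the highest control (2.50). On the FPKM scale it was the only such Hox gene, against 0.954% of all genes tested. No Hox gene had all leukemic libraries below on that scale, against 2.9% of all genes. Hoxa10 did once values were divided by library totals, for which the share over all genes was not computed. The log2 fold change was 0.66 (SE 0.28; 95% interval 0.04 to 1.29; limma adjusted p = 0.695). Its unadjusted p rose above 0.05 when leukemic library 1 or 2 or control library 3 or 4 was left out. The same held with totals rescaled to TPM, with array weights and without the filter on low values. The log2 fold change was 0.36 without leukemic libraries 1 and 2. With the length trend removed from every library it was 0.71.

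Ratios within a library do not depend on its scaling. The ratio of Hoxc9 to Hoxa9 was 0.503, 0.510, 0.256 and 0.305 in leukemic and 0.215, 0.245, 0.197 and 0.0857 in control libraries. Relative to Hoxd9 it was 3.15, 4.08, 1.55 and 1.76 in leukemic and 0.936, 1.02, 1.28 and 0.339 in control libraries. In both ratios the leukemic libraries lay above the control libraries. The groups overlapped in the ratios of Hoxc9 to Hoxc8 (1.76 ± 0.62 against 0.963 ± 0.437, SD, n = 4 each) and to Hoxc10 (0.194 ± 0.107 against 0.0929 ± 0.0436). These ratios were chosen after the values were seen and were not tested. They reuse the Hoxc9 values that already set the groups apart, so they add no separate evidence. Schwann cell markers (4 genes, led by Mbp) summed to 39.2 to 59.8 FPKM in leukemic and 10.6 to 37.9 FPKM in control libraries. Every leukemic sum thus lay above every control sum, which held for no other marker list. This list was set beside Hoxc9 after its values were seen. Of the 4 Schwann cell genes, 3 had the higher mean in leukemic OBCs and none was at 0 throughout. Their part in the Hoxc9 values was not tested.

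**Figure D4:**
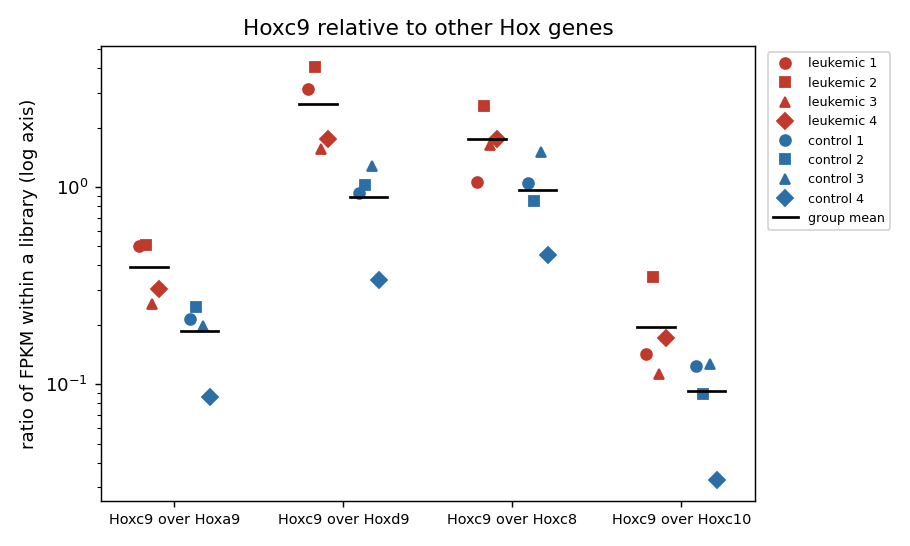
Ratio of Hoxc9 FPKM to that of 4 other Hox genes in the same library (log axis); points are libraries (marker shape gives the number) and lines are group means. The leukemic points lie above the control points for Hoxa9 and Hoxd9 and overlap them for Hoxc8 and Hoxc10.

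The next smallest p-values belonged to genes with lower leukemic means. Hoxd9 (15438, chromosome 2, 74697763 to 74700208), a group 9 gene, stood at 1.10, 1.45, 1.68 and 1.52 FPKM in leukemic and 2.67, 2.40, 1.47 and 2.57 FPKM in control libraries. Only control library 3 lay within the leukemic range, and the log2 fold change was -0.42 (SE 0.20; 95% interval -0.86 to 0.026; limma adjusted p = 0.695). Hoxa10 had a log2 fold change of -0.40 (SE 0.20; 95% interval -0.83 to 0.039; limma adjusted p = 0.695).

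Hoxa11 (15396, chromosome 6, 52242105 to 52245810), which shapes the middle limb segment and marks skeletal progenitors there, stood at 0.700, 3.59, 1.39 and 0.520 FPKM in leukemic libraries. It stood at 3.34, 2.58, 2.31 and 2.02 FPKM in control libraries. Leukemic libraries 1, 3 and 4 lay below all controls and leukemic library 2 above all of them. The log2 fold change was -0.61 (SE 0.33; 95% interval -1.34 to 0.12; limma adjusted p = 0.695), and it was -0.94 without leukemic library 2 (adjusted p = 0.47) and -0.41 without leukemic library 4.

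Hoxc6 (15425, chromosome 15, 102998226 to 103011882), a gene of the thoracic level, stood at 1.46, 0.600, 1.08 and 1.09 FPKM in leukemic and 2.19, 1.89, 1.00 and 1.22 FPKM in control libraries. The groups overlapped, with a log2 fold change of -0.31 (SE 0.23; limma adjusted p = 0.719). The remaining tested genes had larger p-values. Hoxc10 (-0.14), Hoxa9 (-0.15), Hoxd8 (-0.12) and Hoxc5 (-0.23; 1.05 ± 0.39 against 1.44 ± 0.64 FPKM) had negative log2 fold changes. Hoxd10 (0.13; 1.27 ± 0.51 against 1.08 ± 0.44 FPKM), Hoxa7 (0.053; 3.41 ± 1.82 against 3.11 ± 1.25 FPKM) and Hoxc8 (0.022; 2.17 ± 0.81 against 2.11 ± 0.69 FPKM) had positive ones. Leaving out 1 library at a time gave -0.185 to 0.315 for Hoxa7, -0.132 to 0.138 for Hoxc8, -0.029 to 0.21 for Hoxd10 and -0.385 to 0.089 for Hoxd8, so no direction can be given for these genes. Their differences were within the spread between libraries, and the 95% intervals of 11 of the 12 genes held 0. Over the 12 genes the intervals reached from -1.34 to 1.29 on the log2 scale.

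**Figure D5:**
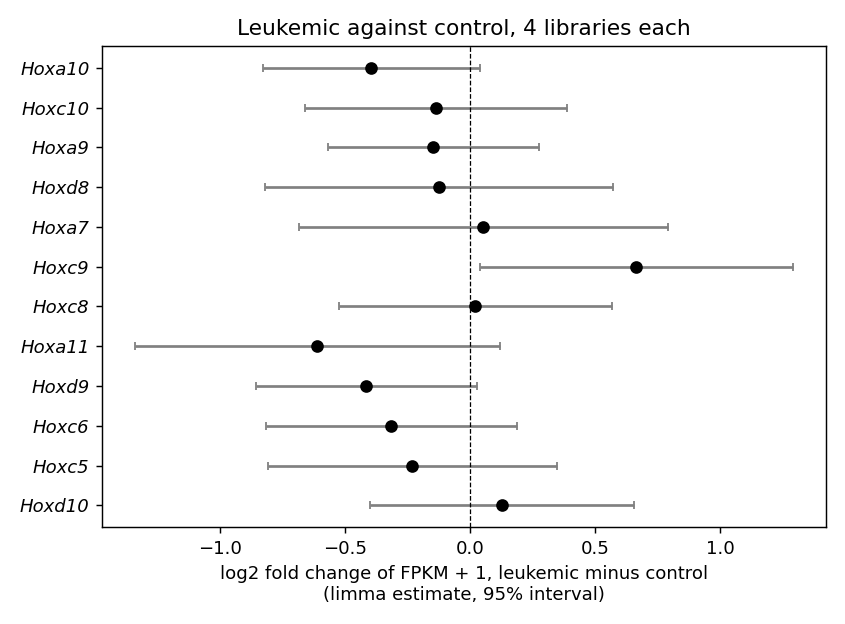
Log2 fold change of FPKM + 1, leukemic minus control, of the 12 Hox genes tested, in order of mean level; points are limma estimates and bars 95% intervals (4 libraries per group). All intervals except that of Hoxc9 hold 0, and none of the 12 genes passed adjustment over all genes.

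Several Hox genes had their highest or lowest value of a group in the same library. Leukemic library 2 was the highest of its group in 8 of the 12 genes, and leukemic library 1 the lowest in 6. Among controls, library 1 was the highest in 6 genes and library 3 the lowest in 6. The matching shares over all genes were not computed, so these counts cannot be read as a trait of the Hox genes. Leukemic library 2 also had the largest summed FPKM over the table (632055). In the authors' deposited table, whose log2 ratio was made by a method not given in the sources used here, the ratio was 0.96 for Hoxc9, -0.71 for Hoxa11, -0.64 for Hoxd9 and -0.39 for Hoxa10.

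Lists of genes related to Hox genes were read from the same limma fit. The TALE list held 11 genes of the protein class to which the Hox partners Pbx and Meis belong. Not every member is an established Hox partner, Tgif1 and Tgif2 among them. Of the 11, 10 were tested and 0 passed in either direction, with 5 positive and 5 negative and a median log2 fold change of 0.014. Tgif1 (34.5 ± 7.2 against 38.6 ± 6.9 FPKM), a repressor, Meis3 (16.4 ± 2.4 against 16.0 ± 2.7 FPKM) and Tgif2 (12.1 ± 2.7 against 12.3 ± 3.8 FPKM) were the most abundant. Meis2 had the smallest p (3.02 ± 1.61 against 2.21 ± 0.75 FPKM; limma adjusted p = 0.815). Meis1, a partner of Hoxa9, stood at 8.13 ± 2.32 against 7.80 ± 2.51 FPKM, and was chosen after its values were seen.

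Of 27 entries in the limb and skeletal patterning list, 25 were in the table and 16 were tested, of which 0 passed, with 5 positive and 11 negative and a median log2 fold change of -0.15. The most abundant were Dlx5, an osteogenic homeobox gene (77.5 ± 15.6 against 82.7 ± 10.1 FPKM), Shox2, a gene of the upper limb segment (43.7 ± 10.1 against 49.3 ± 11.4 FPKM), and Msx1 (30.0 ± 3.3 against 26.1 ± 5.2 FPKM). Gli3, a mediator of hedgehog signals that patterns the digits, stood at 2.39, 2.93, 2.60 and 2.79 FPKM in leukemic and 2.96, 5.26, 4.12 and 5.62 FPKM in control libraries. It was the 1 gene of the 16 with all leukemic libraries below all controls, against 2.9% of all genes. Its log2 fold change was -0.55 (SE 0.21; limma adjusted p = 0.695).

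Markers of limb type were chosen after their values were seen. Pitx1 and Tbx4, which specify the hindlimb, stood at 11.7 ± 4.5 against 10.3 ± 3.5 FPKM and at 3.03 ± 1.60 against 3.77 ± 2.06 FPKM. Tbx5, which specifies the forelimb, stood at 0.873 ± 0.472 in leukemic and 1.71 ± 0.69 FPKM in control libraries (limma adjusted p = 0.695). Transcripts of both limb types were thus listed, with the means of Pitx1 and Tbx4 above that of Tbx5 in both groups. In control library 3, however, Tbx4 (0.88 FPKM) was below Tbx5 (1.33 FPKM). Isl1, a further hindlimb gene of the list, stood at 0.890 ± 0.182 against 1.36 ± 0.58 FPKM. That was near Tbx5 in leukemic and below it in control libraries, so the order does not hold for every hindlimb gene.

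Of 34 Polycomb, trithorax and related regulators, 31 were in the table and 30 were tested, with 0 past the threshold, 11 positive and 19 negative, and a median log2 fold change of -0.12. The most abundant were the histone-binding proteins Rbbp7 (162.3 ± 13 against 183.1 ± 14.1 FPKM) and Rbbp4 (39.1 ± 0.99 against 43.0 ± 5.5 FPKM) and the trithorax complex subunit Dpy30. Dpy30 stood at 46.2, 64.7, 22.9 and 8.95 FPKM in leukemic and 22.6, 13.2, 13.3 and 9.88 FPKM in control libraries, with the high values in leukemic libraries 1 and 2. Suz12, a core subunit of the Polycomb complex that methylates histone H3, had the smallest p. It stood at 0.690, 1.42, 1.18 and 1.27 FPKM in leukemic and 1.83, 3.58, 1.83 and 2.62 FPKM in control libraries (log2 fold change -0.68, SE 0.22; limma adjusted p = 0.695).

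Of the 30 regulators tested, 2 had all leukemic libraries below all controls, Suz12 and Phc2 (12.1 ± 2.0 against 16.9 ± 4.8 FPKM), and 1 had all above, against 2.9% and 0.954% of all genes. The gene above was Cbx8, a Polycomb reader of methylated histones, at 8.43, 8.08, 6.43 and 6.30 FPKM in leukemic and 4.46, 5.18, 3.45 and 5.51 FPKM in control libraries. For Cbx8 the log2 fold change was 0.56 (SE 0.19; limma adjusted p = 0.695). Ezh1, the methyltransferase of resting cells, had a log2 fold change of 0.51 (12.9 ± 2.3 against 8.72 ± 1.33 FPKM; limma adjusted p = 0.695), and its groups overlapped. Its paralogue Ezh2 stood at 2.60 ± 0.77 against 3.78 ± 1.15 FPKM. Phc2, Cbx8, Ezh1 and Ezh2 were chosen after their values were seen.

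The genes that flank the clusters, 3 in the table on each side, numbered 24, of which 19 were tested and 0 passed, with 10 positive and 9 negative and a median log2 fold change of 0.015. Evx1 and Evx2, homeobox genes next to the Hoxa13 and Hoxd13 ends, were not tested (means of 0.0175 and 0.00875 FPKM over the 8 libraries). Beyond Evx1 and Evx2 the next genes out were far higher than these cluster ends, with Hibadh at 48.6 FPKM beyond Hoxa13 and Lnpk at 2.46 FPKM beyond Hoxd13. The nearest listed neighbours of the Hoxb cluster, Calcoco2 and Skap1, were low as well (means of 0.030 and 0.061 FPKM). The most abundant neighbours were Rps6-ps4, a ribosomal protein pseudogene whose reads may come from near-identical copies (392.3 ± 202.4 against 183.7 ± 52.5 FPKM), Cbx3 (150.4 ± 99.0 against 93.8 ± 12.1 FPKM) and Atp5g1 (96.2 ± 69.3 against 41.6 ± 18.0 FPKM). All 3 were highest in leukemic libraries 1 and 2. Ube2z, a ubiquitin-conjugating enzyme beside the Hoxb cluster, had the smallest p (5.32 ± 0.70 against 8.67 ± 1.69 FPKM; log2 fold change -0.60, SE 0.19; limma adjusted p = 0.695). Of the 19 tested, 2 (Ube2z and Hibadh) had all leukemic libraries below all controls and 0 had all above, against 2.9% and 0.954% of all genes.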

How the data were processed

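Per the labels' protocols, bones were digested with collagenase and RNA-seq libraries came from a SMART-Seq v4 kit for small inputs. RSEM 1.2.8, HISAT2 2.0.4, DESeq2, Bowtie2 2.2.5 and GRCm38.p6 appear in the submitters' processing notes, without their roles. The authors deposited FPKM values for 17068 genes, per the file headers. They also deposited a log2 ratio, per the file headers, used here only for description. FPKM divides by length and library total. How multi-mapped fragments were treated is not stated by the labels, and the depth is unknown, so no counting interval is given.

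Libraries were grouped by title. Values were analysed as log2(FPKM + 1), which understates the change of low genes, for genes reaching 1 FPKM in 4 or more libraries. Groups were compared with limma 3.58.1 (R 4.3.3), with a mean-variance trend, two-sided, Benjamini-Hochberg adjusted over 11214 genes, after a test on simulated data. Positions and promoters came from RefSeq, and transcripts from GENCODE M21, which gave lengths to 99.3% of tested genes. The paralogue pairs were compared by exact permutation; these pairs, the Hoxc9 ratios and the sequences shown were chosen after values were seen.

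Members with a mean of at least 5 FPKM and the 5 smallest p-values were given by library. Of other lists, genes past the threshold, the 3 most abundant and the smallest p were named. The members and lists were chosen with earlier results of these data known. The values of 1 member are not reported here. Alternatives were 2 pseudocounts, 2 filters, 3 scalings, 3 variance settings, the replicate number as a block, removal of the length trend (lowess, span 0.3) and leaving out libraries.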

Additional observations from a re-analysis of the deposited data

How the results depend on the processing

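No Hox gene passed in any alternative run, with a lowest adjusted p of 0.258 (limma, without leukemic library 4), and 0 genes of the other lists passed in any of them. Over all genes limma called 0, and 4 with TPM totals, 3 with quantile normalization, 6 with array weights, 1 without the filter, 1 with the block and length trend removed and 2 without leukemic library 4. TPM totals moved the median log2 fold change of all genes from -0.025 to -0.138. Hoxa7 was then at -0.058 and Hoxc8 at -0.073, above that median but on the other side of 0 from the reported values. Hoxc8 was at -0.0040 with upper quartile scaling and -0.149 with array weights, and Hoxd10 at -0.016 with array weights. Without leukemic libraries 1 and 2, Hoxa7 was at -0.253 and Hoxc8 at -0.255. With TPM totals Hoxa10, Hoxa11 and Hoxd9, not Hoxc9, had an unadjusted p under 0.05, and over all genes 733 were lower and 180 higher at that p. Apart from the TPM shift, the cause of these changes was not tested. Leaving out 1 library at a time gave -0.185 to 0.315 for Hoxa7, -0.132 to 0.138 for Hoxc8, -0.029 to 0.21 for Hoxd10 and -0.385 to 0.089 for Hoxd8. It gave 0.457 to 0.77 for Hoxc9, which was positive in all 21 alternatives (0.36 to 0.916). With 1 library left out at a time, the median of the Hox genes ran from -0.224 to -0.104. That median was -0.266 with TPM totals and -0.021 without the filter, where all 35 members entered. The median of the chromatin regulators was 0.019 with a filter of 5 FPKM and -0.213 with TPM totals, and that of the flanking genes 0.155 with array weights.

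The deviations of same-numbered libraries correlated at 0.122, -0.0473, -0.0717 and 0.22 for numbers 1 to 4, and not every library correlated best with its own number. Since the labels give no shared source and not every pair was over 0.1, the numbers were not taken to pair the samples. With the replicate block 0 Hox genes passed (lowest adjusted p 0.513), and unadjusted calls over all genes were 633 higher and 405 lower, against 279 and 463. Of the 12 genes tested, 4 were left by the filter of 5 FPKM. The low level of the other Hox genes and the unknown depth limit what could be detected.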
